A study of Mus musculus with 3 samples.

Results

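The genes described here encode the contractile apparatus of smooth muscle and its regulators, 39 genes chosen by name, of 18194 named genes on the array. The tissue was the fetal ureter, whose muscle coat later propels urine, taken at embryonic day 15 (Theiler stage 23) from mice of the FVB/N strain that were wild type. All 3 samples belong to 1 group and are called replicates 3, 8 and 9. The ureter was dissected along its whole length between renal pelvis and bladder, samples were not pooled, the sex was given as unknown, and RNA went through 2 rounds of amplification before hybridisation to a 1-colour Affymetrix array of the whole mouse genome. The labels leave it unstated whether each sample is a different embryo, and the spread between samples may therefore be technical. With 1 group no difference could be tested, and all values below are descriptions.

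Of the 39 members 38 had a probe set that names them alone and could be measured. The members fall in 2 classes that were set against each other. The 20 muscle-restricted members, such as Acta2, Tagln, Myh11 and Cnn1, were taken to mark smooth muscle cells or to be enriched in muscle. Some, among them Mcam and Aoc3, are also expressed in other cell types. The 19 shared actomyosin members, such as Myh9, Cnn3, Tpm4 and Rhoa, were taken to serve contraction and adhesion in many cell types, undifferentiated mesenchyme included. Classes were assigned by gene name, and bulk tissue does not show which cells express a member. Smooth muscle shortens when calcium and calmodulin activate myosin light chain kinase, which phosphorylates the regulatory light chain so that myosin pulls on actin filaments. Myosin phosphatase reverses this, and the small GTPase RhoA restrains the phosphatase. In the ureter, mesenchymal cells around the epithelial tube turn on the smooth muscle genes stepwise, with smooth muscle actin early and calponin among the later ones, under the control of serum response factor and its coactivator myocardin.

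Many smooth muscle genes are known targets of serum response factor, which binds the CArG box, 10 bases with a pair of C at one end, a pair of G at the other and A or T between. Promoters of 250 bases before to 50 after the start site were found in RefSeq (build GRCm38.p6) for 32 members, 38 promoters in all. An exact CArG box stood in 4 of the 38 (Myl9, Cnn2, Myl6 and Vcl), or 10.5%, against 1.63% of all 32851 promoters. By class that was 1 of 19 promoters of muscle-restricted members and 3 of 19 of shared members. With 1 other base allowed in the A or T stretch as well, the motif was in 3 of 19 promoters of each class, or 15.8%, against 9.98% of all promoters. The box reads alike in form on both strands, so 1 search covers both. The 4 promoters below are shown because they set a muscle-restricted actin and light chain gene beside a pair of shared genes, each holding the motif, which is printed in capitals 5′ to 3′ along the gene's strand.
Acta2, chr19:34255324-34255623 (- strand): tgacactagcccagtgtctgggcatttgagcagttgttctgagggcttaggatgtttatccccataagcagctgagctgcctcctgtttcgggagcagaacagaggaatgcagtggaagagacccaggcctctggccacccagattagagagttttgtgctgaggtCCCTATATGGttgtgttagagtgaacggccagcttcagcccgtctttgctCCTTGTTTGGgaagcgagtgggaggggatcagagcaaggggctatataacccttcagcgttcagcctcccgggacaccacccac
Myl9, chr2:156775214-156775513 (+ strand): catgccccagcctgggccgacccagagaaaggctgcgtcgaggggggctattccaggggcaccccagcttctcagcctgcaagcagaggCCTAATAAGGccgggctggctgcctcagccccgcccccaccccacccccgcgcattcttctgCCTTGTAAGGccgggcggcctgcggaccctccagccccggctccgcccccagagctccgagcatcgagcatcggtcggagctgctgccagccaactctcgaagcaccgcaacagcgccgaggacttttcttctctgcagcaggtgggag
Cnn2, chr10:79988350-79988649 (+ strand): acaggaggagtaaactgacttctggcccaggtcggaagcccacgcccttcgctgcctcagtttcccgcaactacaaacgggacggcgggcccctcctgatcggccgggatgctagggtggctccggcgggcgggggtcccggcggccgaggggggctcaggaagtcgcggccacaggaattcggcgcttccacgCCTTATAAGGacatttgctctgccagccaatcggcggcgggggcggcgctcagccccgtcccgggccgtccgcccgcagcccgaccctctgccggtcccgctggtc
Vcl, chr14:20929148-20929447 (+ strand): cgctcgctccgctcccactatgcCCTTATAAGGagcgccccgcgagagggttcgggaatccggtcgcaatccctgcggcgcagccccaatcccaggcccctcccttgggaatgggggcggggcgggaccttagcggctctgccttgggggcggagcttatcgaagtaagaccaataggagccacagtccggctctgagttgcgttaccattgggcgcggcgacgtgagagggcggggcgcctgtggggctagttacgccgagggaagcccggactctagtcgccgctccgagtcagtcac
The boxes of Cnn2 (CCTTATAAGG, first base 56 bases upstream of the start site) and Vcl (the same letters, 227 bases upstream) were exact. Myl9 had an exact box (CCTAATAAGG, 161 bases upstream) and a near one (CCTTGTAAGG, 99 bases upstream). Acta2 had near boxes only (CCCTATATGG, 84 bases upstream, and CCTTGTTTGG, 34 bases upstream). The letters CATTCC, a motif bound by TEAD factors, were present on either strand in 6 of 19 promoters of muscle-restricted members and 6 of 19 of shared members (31.6% of each), against 14.7% of all promoters. A match is a description of letters, not a binding site, and promoters of Tagln, Myh11 and Actg2 were not used here.

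Signals are linear intensities scaled by the authors to a common mean on each array, and a gene is represented by its brightest probe set. Probe sets differ in brightness for reasons other than transcript amount, so signals of different genes are not ranked. Background was taken from 43 measured genes whose main tissue was not dissected (such as pancreas, pituitary, thyroid, lens and testis), as the 95th percentile of their signals on each array. It lay at 471 in replicate 3, 372 in replicate 8 and 743 in replicate 9. Among those 43 genes Tff1 (1201 ± 217, SD, n = 3) and Cela1 (751 ± 104) were above it on all arrays. On all 3 arrays 49.3% of the named genes exceeded it, and 58.4% when the 90th percentile was used.

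The shared actomyosin members were above background on all 3 arrays in 18 of 18 cases, whereas 9 of 20 muscle-restricted members were, close to the 49.3% of all named genes. The median mean signal was 1321 over muscle-restricted members and 15903.5 over shared members, against 777 over all named genes, but this gap depended on the choice of probe set. On the log2 scale the medians were 10.18 and 13.90 with the brightest probe set of each gene, and 8.86 and 10.64 with all probe sets averaged. The brightest was chosen from more in the shared class, which had 38 unused probe sets over 18 genes, against 19 over 20. With averaged probe sets 7 of 20 muscle-restricted and 17 of 18 shared members were above background on all arrays. With the brightest probe set, the 9 muscle-restricted members above background were Acta2, Actg2, Smtn, Tpm2, Mylk, Myl9, Synpo2, Pdlim3 and Prkg1. Another 6 (Tagln, Myh11, Ppp1r12b, Csrp1, Pln and Mcam) missed background on replicate 9 alone, so that 15 of 20 passed without replicate 9, against 55.3% of all named genes. Replicate 9 had the highest background, and its signals of Tagln (613), Pln (623) and Mcam (555) were above the background of both other arrays. Cnn1, Des and Aoc3 were above background on 1 array, and Lmod1 and Ppp1r14a on none. With the 90th percentile as background 14 of 20 muscle-restricted and 18 of 18 shared members passed, against 58.4% of all named genes. In bulk tissue, fewer cells of a type and less RNA per cell cannot be told apart.

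**Figure D1:**
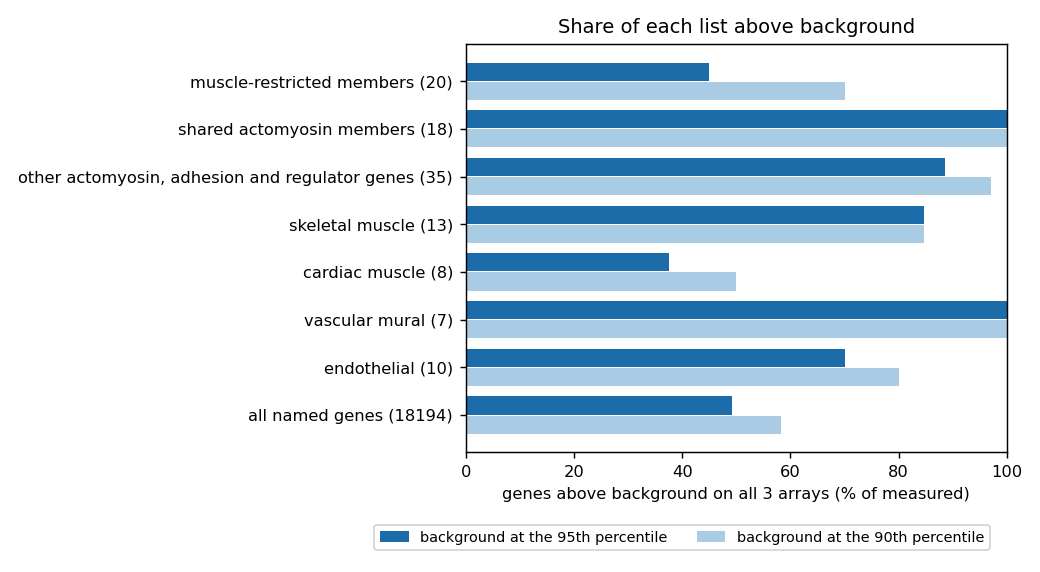
Share of each gene list above background on all 3 arrays (horizontal axis, percent of measured genes), with the number of measured genes in brackets. Dark bars use the 95th percentile of the outside-tissue genes as background and pale bars the 90th, and the shared members reach 100% in both while the muscle-restricted members reach 45% and 70%.

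**Figure D2:**
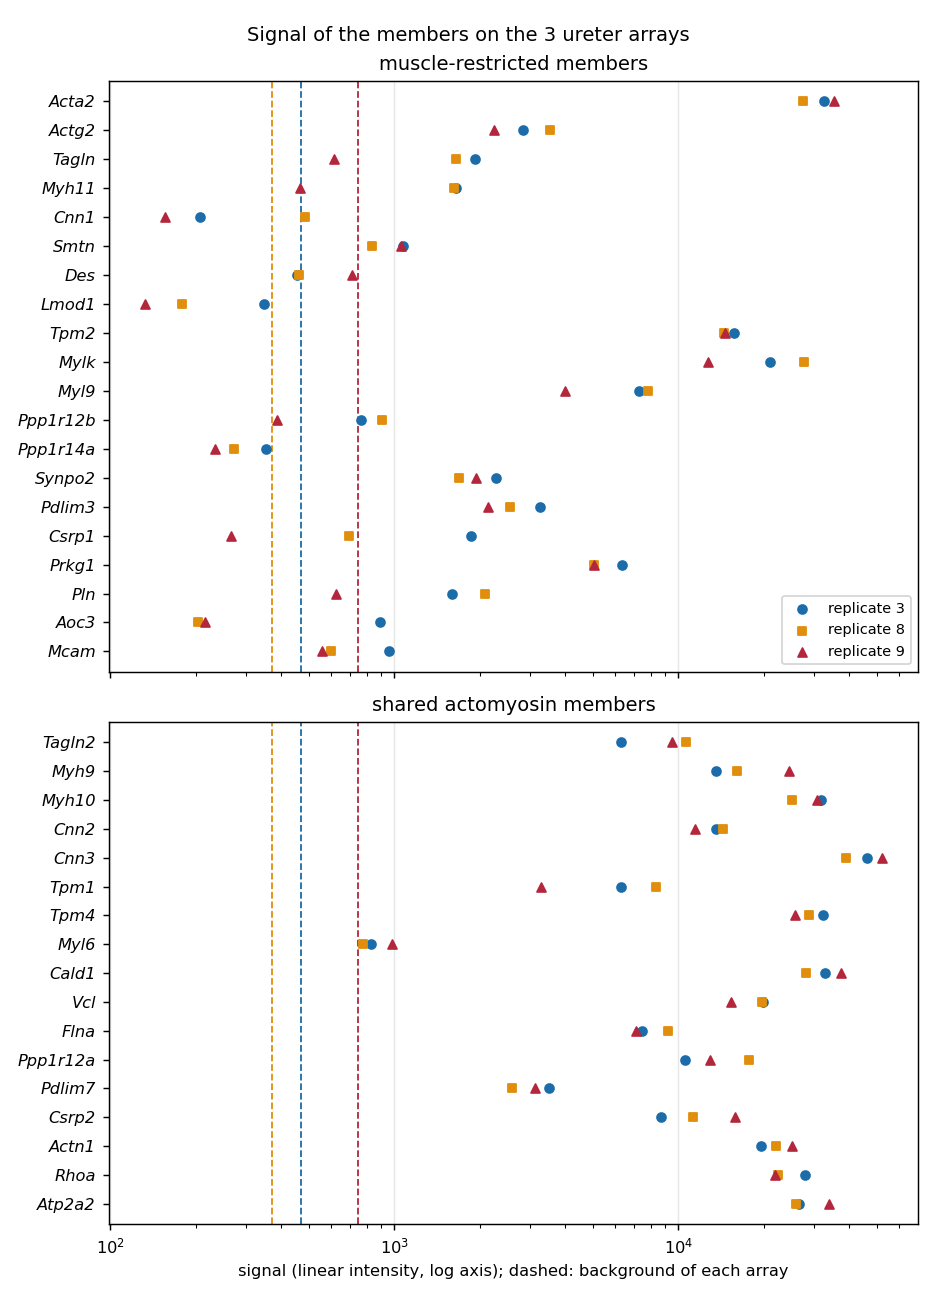
Signal of each member on each array (horizontal log axis, linear intensity units), muscle-restricted members in the upper panel and 17 of the 18 shared actomyosin members in the lower. Dashed lines mark the background of each array in the colour of its replicate. Cnn1, Lmod1 and Ppp1r14a sit near or below the lines, and Tagln, Myh11, Pln and Csrp1 have a low point in replicate 9.

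Actin and myosin genes form the filaments. Acta2, the gene of smooth muscle alpha-actin, had signals of 32410.5, 27441 and 35287 in replicates 3, 8 and 9 (the order of all values given in threes), a mean of 31713 ± 3969. These are close to each other, the highest being 1.29 times the lowest. The probe set behind them ends in _s_at, which marks probes that can bind transcripts of several genes, and the other 2 Acta2 probe sets were below background on every array, at no more than 195. Actg2, the gene of the gamma-actin of visceral smooth muscle, had signals of 2841, 3539.9 and 2250.5. It was above background on each array and highest in replicate 8.

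Myh11 encodes the smooth muscle myosin heavy chain, a protein of differentiated smooth muscle. Its signals were 1647, 1620.2 and 465, a mean of 1244 ± 674, with replicate 9 well below the other two. Its other probe set was below background on every array. The non-muscle heavy chain genes had another pattern. Myh9 had signals of 13559, 16121 and 24545, highest in replicate 9, and Myh10 had 31686, 25017 and 30644. Both non-muscle genes were therefore far above background on the array where Myh11 was below it.

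Among light chain genes, Myl9, whose product is the regulatory light chain of smooth muscle, had signals of 7282, 7843 and 3975. Replicate 9 was again the low one, by 1.97-fold against replicate 8. Myl6, the essential light chain of smooth and non-muscle myosin, had 828, 775 and 985 with the only probe set that names it alone. A pair of probe sets that name Myl6 together with predicted genes averaged 28803 and 6399.

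Several members bind actin filaments and steady them. Tagln encodes transgelin (SM22), an early marker of smooth muscle, and had signals of 1928, 1654 and 613 (1398 ± 694). Its relative Tagln2, which is widely expressed, had 6267, 10632 and 9482, lowest in replicate 3. The 2 genes thus differed in which array was low, although a further Tagln2 probe set read 7114, 3750.3 and 5828.

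Calponins bind actin and restrain myosin. Cnn1, the calponin of differentiated smooth muscle, had signals of 207, 486 and 156 and was above background in replicate 8 alone. Cnn2 had 13524, 14378 and 11436, and Cnn3, the acidic calponin, 46085, 38982 and 51916. Every one of the 6 Cnn3 probe sets was above background on all arrays. Lmod1, whose product leiomodin nucleates actin filaments in smooth muscle, stayed below background with 348, 179 and 133. Smtn, the smoothelin gene of contractile smooth muscle, was above background with 1071, 833 and 1053.

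Tropomyosins lie along actin filaments and gate myosin. Tpm2 was the most even of the members, with signals of 15732, 14490.0 and 14597 (range 0.12 on the log2 scale). Tpm4 had 32186, 28901 and 25769.6. Tpm1, which is spliced into many muscle and non-muscle forms, had 6259, 8324 and 3275. It was lowest in replicate 9 with each of the 4 Tpm1 probe sets. Cald1, the gene of caldesmon, which restrains actomyosin and has a smooth muscle and a non-muscle form, had 32840.2, 28149.6 and 37324. Like that of Acta2, the Cald1 probe set used ends in _s_at, and it was 1 of 5 above background on every array. Those used for Myh9 and Rhoa end in _s_at too, and those for Cnn3 and Tagln2 in _x_at. Without probe sets of either ending the mean log2 signal of Cald1 was 9.57, against 14.99.

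Regulators of myosin phosphorylation were read next. Mylk, the gene of myosin light chain kinase, had signals of 21041, 27704 and 12746, above background on every array and lowest in replicate 9. The subunit that targets myosin phosphatase to myosin is encoded by Ppp1r12a in most cells and by Ppp1r12b chiefly in muscle. Ppp1r12b had signals of 765, 905 and 387, and Ppp1r12a had 10559, 17676 and 12959.9. Ppp1r14a, whose product CPI-17 inhibits the phosphatase in smooth muscle, had 353, 272 and 234 and was below background on every array.

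Rhoa, the gene of that GTPase, had signals of 27868, 22368 and 21908. Prkg1, the gene of the cyclic GMP-dependent kinase that relaxes smooth muscle, had 6347, 5027 and 5064. Both were above background throughout. The calcium store is served by Atp2a2, the gene of the pump that refills it, and by Pln, whose product phospholamban inhibits that pump. Pln had 1595, 2094 and 623, and Atp2a2 26674, 25989 and 33759.8. With the probe sets used, Pln was lowest and Atp2a2 highest in replicate 9. Every other Atp2a2 probe set with a mean above background was highest in replicate 3, for example at 10328, 7856 and 9426.

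Further members anchor filaments to membranes and dense bodies. Vcl (vinculin) had signals of 19829, 19688 and 15256, Actn1 (alpha-actinin) 19494, 22087 and 25188, and Flna (filamin) 7441, 9169.9 and 7066. All of them were above background on each array with a highest value 1.29 to 1.30 times the lowest. Des, which encodes the intermediate filament desmin of all muscle types, had 455, 464 and 707. It was the 1 muscle-restricted member with a centred deviation in replicate 9 above 0.40 on the log2 scale (0.44), and it was below the background of replicates 3 and 9. Synpo2, a Z-disc and dense body protein gene, had 2284, 1685 and 1944.

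The PDZ and LIM domain genes bring proteins to alpha-actinin and actin. Pdlim3 had signals of 3268, 2555 and 2136 and Pdlim7 3510.4, 2588 and 3123. Csrp1, the cysteine-rich LIM protein gene enriched in smooth muscle, had 1862.5, 691 and 265, the widest range of the members (2.81 on the log2 scale). Csrp2 ran the other way, with 8700.1, 11301 and 15783. The surface proteins complete the list. Aoc3, an amine oxidase gene of differentiated smooth muscle and fat, had 894, 204 and 215, above background in replicate 3 alone, and Mcam, an adhesion gene of smooth muscle, pericytes and endothelium, had 956, 599 and 555.

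Deviations of the members were compared between the arrays. For each gene the log2 value was set against its mean over the 3 arrays, and each array was centred on its median deviation over genes above background. Over all 20 muscle-restricted members the median deviation in replicate 9 was −0.44, against 0.25 in replicate 3 and −0.06 in replicate 8. Over the 18 shared members it was 0.01, −0.04 and 0.09 in replicates 3, 8 and 9, and over all named genes 0.04, −0.06 and 0.03. In replicate 9, 13 of 20 muscle-restricted members had their lowest centred value, against 6 of 18 shared members and 31.7% of all named genes. The exceptions among muscle-restricted members were Acta2, Smtn, Des, Tpm2, Synpo2, Prkg1 and Aoc3.

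The size of this difference depended on the filter. A gene low in replicate 9 could miss background there, so a filter on all 3 arrays takes out those genes. Over the 9 muscle-restricted members above background on every array the median in replicate 9 was −0.08, with 4 of 9 lowest there, against 35.6% of all genes so filtered. The muscle-restricted minus shared difference in replicate 9 was then −0.16, and it came close to 0 with quantile normalization (−0.036) and with a narrow list of 11 smooth muscle genes (−0.010). With that normalization the difference was larger in replicate 3 (0.16) and replicate 8 (−0.093), and with the narrow list in replicate 8 (−0.19). These narrow-list values rest on the 4 of 11 genes above background on every array. With no filter the narrow-list median in replicate 9 was −0.57 (7 of 11 lowest there), and with a filter on the mean it was −0.30. With a filter on the mean over the arrays, chosen after seeing the data, the muscle-restricted median in replicate 9 was −0.28. The difference from shared members was then −0.37. In that set 10 of 16 muscle-restricted members were lowest in replicate 9, against 36.9% of genes so filtered. Among the members of that set, 6 of 16 muscle-restricted (Tagln, Myh11, Mylk, Ppp1r12b, Csrp1 and Pln) and 2 of 18 shared members (Tpm1 among them) had a log2 range of at least 1, against 16.2% of genes. All 8 were lowest in replicate 9. Of the 10122 genes so filtered 1642 had such a range, and 577 of those 1642 (5.7% of the 10122) were lowest there. Tagln, Myh11, Ppp1r12b, Csrp1 and Pln were below background in replicate 9 and passed the mean filter through replicates 3 and 8. The count of 8 is therefore partly set by the filter and gives no support of its own.

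**Figure D3:**
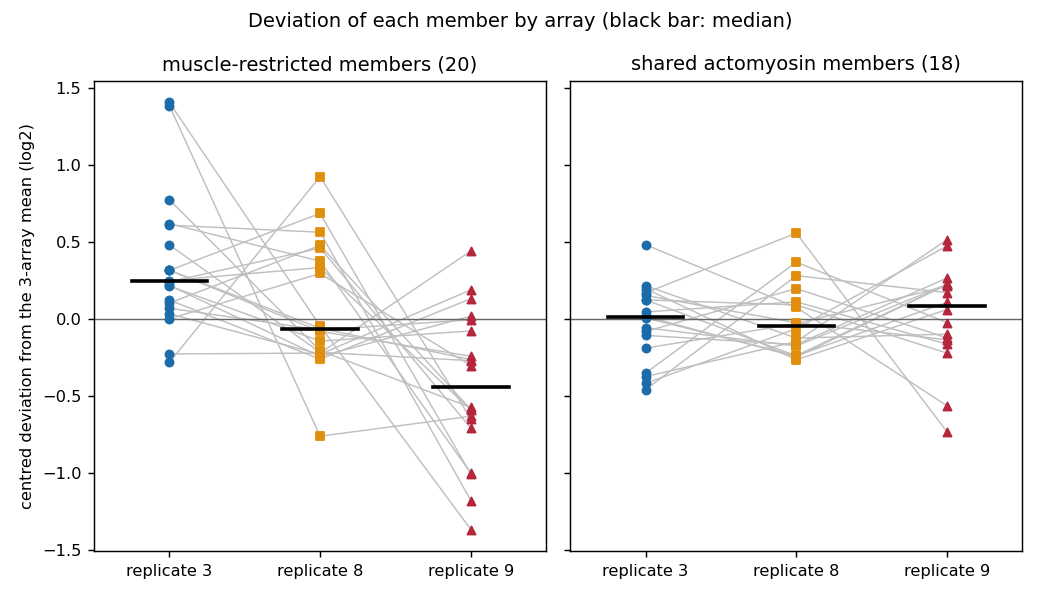
Centred deviation of each member from its mean over the 3 arrays (vertical axis, log2), muscle-restricted members on the left and shared actomyosin members on the right, with replicates 3, 8 and 9 on the horizontal axis. Each grey line joins the values of 1 gene and black bars are medians. The median of the muscle-restricted members is −0.44 in replicate 9 and that of the shared members 0.09.

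Gene families with a member in each class gave 11 pairs, set side by side after their values were seen. In replicate 9 the muscle-restricted gene had the lower deviation in 9 of 11 pairs, with a median difference of −0.82 on the log2 scale. No such share was computed for pairs of other genes. The pairs were not filtered on background, and Tagln, Myh11, Cnn1, Ppp1r12b and Csrp1 were below it in replicate 9. The deviation of Myh11 was −1.18, against 0.52 for Myh9 and 0.11 for Myh10. That of Csrp1 was −1.36, against 0.48 for Csrp2, and that of Tagln −1.0, against 0.17 for Tagln2. Tropomyosins were the exception, since the Tpm2 probe set used was even across the arrays while the deviation of Tpm1 was −0.73 and that of Tpm4 −0.13. In replicates 3 and 8 the muscle-restricted gene was the higher one in 7 and 9 of 11 pairs. Pairs that share a gene are not independent, and the 3 deviations of a gene sum to nearly 0.

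Other values were also read by array, and their part in this difference was not tested. The ratio of 3′ to 5′ signal of the Actb control probe sets was 7.45, 6.5 and 4.0, and that of Gapdh 18.9, 15.1 and 16.4. For Gapdh the ratio of 3′ to middle signal was 2.79, 2.82 and 5.66. These controls did not move together. In replicate 9 the Actb ratio was lowest, the Gapdh 3′ to 5′ ratio lay between the others and its 3′ to middle ratio was highest. Skeletal muscle markers were above background on all arrays in 11 of 13 cases, against 49.3% of all named genes (Myf5 was below it on every array). Those above it included Myh3 (22257 ± 3328) and Acta1 (16253 ± 3118). The summed signal of the skeletal muscle markers was 89521, 79399 and 72679. Cardiac markers were above background in 3 of 8 cases (37.5%), including Myh7 (8817 ± 2609) and Tnnt2 (6921 ± 2265), with sums of 21862, 28808 and 14068. The third was Myl2, with signals of 5775, 6825 and 792, so the low sum in replicate 9 rests in large part on that gene. Which cells these 3 signals come from cannot be told in bulk tissue. The heart genes Nppa, Myl7 and Nkx2-5 were below background on every array.

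Endothelial markers were above background on all arrays in 7 of 10 cases, against 49.3% of all named genes. Those above it included Tek (2929 ± 1308) and Cdh5 (2275 ± 700), and the summed signals of the endothelial markers were 17944, 16728 and 12979. Markers of pericytes and vascular smooth muscle were above background in 7 of 7, including Pdgfrb (6489.6 ± 2794) and Rgs5 (4702 ± 894), with sums of 21188, 16128 and 22546, so that they were not lowest in replicate 9. Markers of undifferentiated ureteric mesenchyme, including Ptch1 (14272 ± 4419) and Tbx18 (11783 ± 7187), were above background in 7 of 8 cases, with sums of 29254, 54326 and 31815. Urothelial markers, including Foxa1 (5301 ± 1781) and Krt5 (3500.1 ± 437), were above it in 7 of 10 cases, with sums of 18175, 20594 and 19852. Des, Tpm2, Pdlim3 and Pln are among the muscle-restricted members that are also expressed in striated muscle. In the measure used for the members, the unfiltered median deviation in replicate 9 was −0.42 over endothelial markers (8 of 10 lowest there) and −0.34 over cardiac markers (4 of 8). It was −0.24 over skeletal muscle markers (9 of 13), beside −0.44 over muscle-restricted members (13 of 20). Of all named genes 31.7% were lowest there. Below background on every array were 2 of the endothelial, 3 of the cardiac and 1 of the skeletal muscle markers, and 2 of the muscle-restricted members. The median deviation in replicate 9 was 0.13 over markers of pericytes and vascular smooth muscle, −0.17 over those of undifferentiated mesenchyme and 0.099 over urothelial markers. Without Des, Tpm2, Pdlim3 and Pln the unfiltered median of the muscle-restricted members in replicate 9 was −0.58, an alternative chosen after seeing the data. The genes left out had deviations of 0.44, −0.003, −0.26 and −1.0 there, in that order. The set left is not free of striated muscle genes, since Ppp1r12b (−0.71) and Synpo2 (0.02) stayed in it.

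The list of other genes of actomyosin, adhesion and their regulation holds 38, of which 35 were measured. Of these, 31 were above background on all 3 arrays, against 49.3% of all named genes, and their median deviation in replicate 9 was 0.01. The genes named from that list by the rule, which goes by signal and does not rank transcripts, were the non-muscle actin gene Actg1 (47841 ± 4643), the cofilin gene Cfl1 (41889 ± 8702), the phosphatase catalytic subunit gene Ppp1cc (40712 ± 5289) and Actb (32127 ± 15146). Kcnmb1, which encodes the smooth muscle subunit of a calcium-activated potassium channel, was the 1 gene of that list below background on every array, with signals of 254, 195 and 196.

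Different probe sets of a member often disagreed. The 38 measured members had 95 probe sets, 47 of them above background on all arrays, and 15 members rested on 1 probe set. Of 13 members with several probe sets whose mean was above background, 5 had the same lowest array with each of them and 4 the same highest, by signals as deposited and not centred. Myh9 was highest in replicate 9 with each of 4 such probe sets, and Rhoa was highest in replicate 3 and lowest in replicate 9 with both of its own, although after centring the Rhoa probe set used was lowest in replicate 8.

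Ppp1r12a and Cald1 showed wide disagreement. A further Ppp1r12a probe set gave 333, 791 and 2648, highest in replicate 9, while the one used was highest in replicate 8. A Cald1 probe set gave 222, 687 and 2888, although the one used varied 1.33-fold. Among the 38 unused probe sets of shared members 20 were highest in replicate 9, against 4 of 19 of muscle-restricted members, but many of these were below background. Among the 29 unused probe sets with a mean above background the highest array was replicate 3 in 9, replicate 8 in 10 and replicate 9 in 10. For Mylk a second probe set was lowest in replicate 3 (713, 2699 and 1736), and for Synpo2 a second was lowest in replicate 9 (1204, 2118 and 834). For Tpm2 a further pair, at 5590.3, 7242 and 4955 and at 4389, 5721 and 3610.1, was lowest in replicate 9. These directions therefore rest on the probe set chosen.

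**Figure D4:**
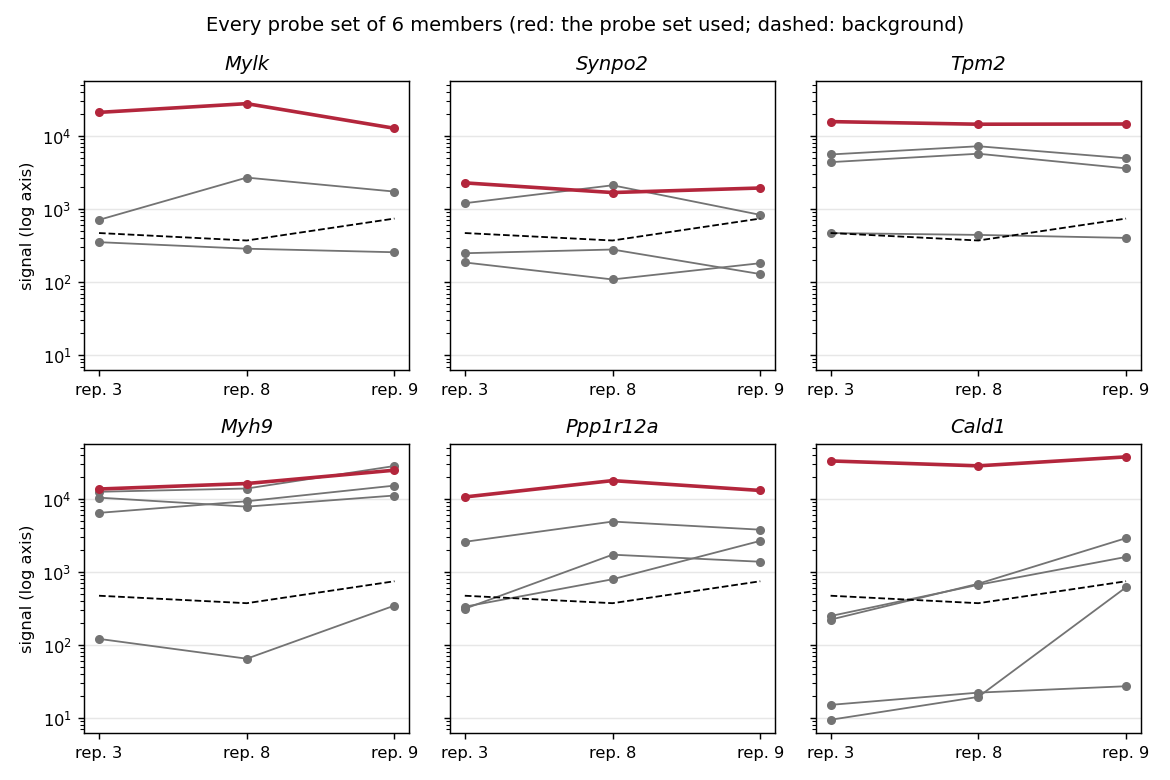
Signal of every probe set of 6 members (vertical log axis, linear intensity units) on replicates 3, 8 and 9, with Mylk, Synpo2 and Tpm2 of the muscle-restricted class above Myh9, Ppp1r12a and Cald1 of the shared class. Lines join the values of 1 probe set, red marks the one that stands for the gene and the dashed line is background. The Ppp1r12a probe set used reads 10559, 17676 and 12959.9 while another reads 333, 791 and 2648.

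The spread between arrays was also uneven between the classes. The median SD on the log2 scale was 0.48 over the 20 muscle-restricted members and 0.21 over the 18 shared members, against 0.38 over all named genes. Over the members above background on all 3 arrays it was 0.22 for muscle-restricted and 0.21 for shared members, against 0.28 for all genes above background.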

How the data were processed

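Total RNA of 3 E15 ureter samples was measured on 1-colour Affymetrix mouse genome arrays. The deposited values are linear intensities, 1 per probe set, and GCOS is named without version or settings in the submitters' processing notes. The 2% trimmed mean was 1500 on each array, as read from the values, so the authors scaled arrays to a common mean. Levels are therefore relative to the rest of each array. Medians were 234, 198 and 273 in replicates 3, 8 and 9.

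Of 45101 probe sets, 34958 have 1 gene symbol in the platform annotation, 932 have several and 9211 are not named here. Only the first kind was used. Signals became log2(signal + 1), and each gene was read from its brightest probe set (by mean log2). Background was the 95th percentile of 43 measured genes, of 50 listed, of tissues outside the dissection. The outside-tissue list is short, so that a few genes set this value. Precision is limited by there being 3 arrays.

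Members are named except where withheld items are not reported here, of which 1 was measured and enters the counts and medians. For other lists, the genes named are those of highest mean signal (4 of the actomyosin list, 2 of a marker list) and, for the actomyosin list, those below background on every array. Members, classes and lists were chosen with earlier results of these data known. No pair of arrays held equal values at more than 8 probe sets, so none is a copy of another. Deviations were tested on simulated data with known shifts. Only genes brighter than the median were shifted, and background was not raised apart from the other genes of an array. The simulation therefore does not cover dim members such as those below background in replicate 9. Alternatives were other percentiles, presence on 2 arrays, pseudocounts of 16 and 64, quantile normalization, averaging all probe sets per gene, dropping those ending in _x_at or _s_at, leaving out each replicate, no filter, no centring and a narrow list of 11 smooth muscle genes. Python 3.11.15, numpy 2.4.6 and pandas 2.3.3 were used.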

Additional observations from a re-analysis of the deposited data

Results flagged for a closer look

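A signal for Myl6 appeared in probe sets outside the measurement used. A pair of probe sets that name Myl6 together with the predicted genes Gm8894 and Gm5526 were left out because they do not name 1 gene, and they were above background on every array. The brighter one had signals of 28154, 26871 and 31383 in replicates 3, 8 and 9 (28803 ± 2324, SD, n = 3), and the other 8143, 6378 and 4676 (6399 ± 1733). The probe set that names Myl6 alone had 862 ± 109. Which gene the brighter signals come from was not tested.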

How the results depend on the processing

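No paired analysis was possible because the samples form 1 group. Members above background on all arrays numbered 27 and stayed within 24 to 33 in the alternatives run. For muscle-restricted members the count was 9, against 14 with the 90th percentile, 15 with presence on at least 2 arrays, 4 of 11 in the narrow list, and 9 to 15 when a replicate was left out, 15 being without replicate 9. Averaging all probe sets of a gene gave a median log2 signal of 8.86 for muscle-restricted members, against 10.18, and 10.64 for shared members, against 13.90, which became 13.59 without _x_at and _s_at probe sets.

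The deviations below concern members above background on all arrays unless said otherwise. In replicate 9 the muscle-restricted median was −0.08. It was −0.44 with no filter, −0.28 with a filter on the mean, −0.50 with quantile normalization and no filter, −0.58 without Des, Tpm2, Pdlim3 and Pln and with no filter, and 0.077 in the narrow list. The difference from shared members there was −0.16, and −0.52, −0.37, −0.51 and −0.67 under the first 4 of these, or −0.40 with averaged probe sets. Other alternatives made it smaller, to −0.036 with quantile normalization (muscle-restricted median −0.026) and −0.010 in the narrow list. The narrow-list values rest on the 4 of 11 genes that passed the filter, and with no filter the narrow-list median in replicate 9 was −0.57. In replicate 8 averaged probe sets gave 0.17 for muscle-restricted members (−0.07) and 0.22 for the difference (−0.02), while quantile normalization without a filter gave 0.069 and 0.044. Shared medians near 0 changed sign, to −0.026 in replicate 3 with quantile normalization and −0.027 with averaged probe sets (0.01), and to 0.026 in replicate 8 with quantile normalization (−0.04), the filter making no difference to them. The median SD of 0.21 was 0.32 with averaged probe sets and 0.32 with no filter. The mean filter, the combined settings and the list without 4 genes were chosen after seeing the data. The cause was not tested, except that the filter on all arrays removes genes dim in replicate 9 by its construction.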
